A study of Mus musculus with 4 samples.

Results

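Zfp genes carry a numbered mouse zinc finger symbol. Of 372 genes with a symbol of that form (Zfp followed by digits alone) in the mouse RefSeq table, 330 had at least 1 probe on the array, and 295 of these were measured, meaning a signal well above background on 1 or more of the 4 arrays. All other genes with a probe numbered 19803, of which 14081 were measured. The cells were J774.1 (J774), a mouse monocyte-macrophage cell line, cultured for 4 h in the presence of solvent (DMSO) or of MG132, epoxomicin or ONX0914 at 1 µM, and total RNA of each culture was hybridized to 1 single-color array. MG132 is a peptide aldehyde that inhibits the proteasome, epoxomicin is a peptide epoxyketone directed at the 20S proteasome, and ONX0914 is a peptide epoxyketone directed at β5 and its immunoproteasome counterpart β5i. For that array the title gives ONX alone and the treatment field reads ONX-0912, whereas the treatment protocol and the paper use ONX0914, which was followed here.

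Each condition had 1 array of 1 culture of 1 cell line. No difference given here therefore has a replicate check, no test between conditions was possible, and all values describe these 4 arrays. The 3 inhibitor arrays were set against the same DMSO array, so that a signal that was low or high on that array enters all 3 differences of a gene. The only error at hand was the spread of probes printed repeatedly on an array, with a median SD of 0.0556 to 0.0613 on the log2 scale, which gives 0.0867 or less for a difference of arrays and leaves out the spread between cultures.

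Most Zfp genes encode C2H2 zinc finger proteins, in which rows of fingers contact DNA, and many also hold a KRAB domain. The KRAB domain recruits *Trim28* (KAP1), which brings the histone methyltransferase *Setdb1* and heterochromatin proteins to retroelements and imprinted loci. Many KRAB zinc finger genes lie beside each other in clusters that arose by duplication, so that probes of close relatives can share signal, and cross-hybridization was not tested here. Some members of the series are named for other zinc fingers, such as *Zfp36* (tristetraprolin), a CCCH protein that binds AU-rich elements of cytokine mRNAs and promotes their decay.

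The cell line label was set against marker genes. All 8 macrophage markers with a probe, among them *Csf1r*, *Cd14* and *Itgam*, were well above background on all 4 arrays, with a summed signal of 272855 to 354534 on an array. The 4 T cell markers summed to 4480 to 5321, from *Cd4* and *Cd3e*, while *Cd3g* and *Cd8a* were not well above background. The 3 B cell markers were not well above background on any array. The summed signals of the 3 epithelial markers (17.2 to 160) and the 3 fibroblast markers (97.2 to 136) were low. *Epcam* and *Col1a1* were not well above background on any array. *Col1a2* was well above background on all 4 arrays (61.2 to 85.6), *Pdgfra* and *Krt8* on 2 and *Krt18* on 1. *Krt8* moved most among the epithelial markers, with 4.16, 37.8, 121 and 5.29 in DMSO, MG132, epoxomicin and ONX0914. Between 60.3% and 63.1% of the spots on an array were well above background and no spot was saturated. The part of other cells in the Zfp values was not tested.

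The promoters of the 3 Zfp genes that were at least 2-fold higher on all 3 inhibitor arrays (*Zfp420*, *Zfp36* and *Zfp142*) and of *Zfp710*, which fell from a high signal, are shown first, since the values of these genes are described in most detail. Each sequence holds the 250 bases before the transcript start on the sense strand of the gene, from RefSeq on GRCm38.p6. Capitals mark matches to TATAAA, to CCAAT or to TGACGTCA on either strand (CCAAT reads ATTGG where it lies on the other strand). The windows are chr7:29859762-29860011 (+) for *Zfp420*, chr7:28379229-28379478 (-) for *Zfp36*, chr1:74588029-74588278 (-) for *Zfp142* and chr7:80024564-80024813 (+) for *Zfp710*.
Zfp420: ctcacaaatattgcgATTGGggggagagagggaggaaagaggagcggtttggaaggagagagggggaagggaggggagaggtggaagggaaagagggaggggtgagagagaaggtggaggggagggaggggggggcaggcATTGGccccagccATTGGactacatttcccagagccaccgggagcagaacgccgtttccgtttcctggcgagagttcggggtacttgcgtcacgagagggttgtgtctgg
Zfp36: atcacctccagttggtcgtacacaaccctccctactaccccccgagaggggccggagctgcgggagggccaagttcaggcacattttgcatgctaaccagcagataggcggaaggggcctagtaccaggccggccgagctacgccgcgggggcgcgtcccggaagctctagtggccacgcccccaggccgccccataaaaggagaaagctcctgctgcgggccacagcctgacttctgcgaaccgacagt
Zfp142: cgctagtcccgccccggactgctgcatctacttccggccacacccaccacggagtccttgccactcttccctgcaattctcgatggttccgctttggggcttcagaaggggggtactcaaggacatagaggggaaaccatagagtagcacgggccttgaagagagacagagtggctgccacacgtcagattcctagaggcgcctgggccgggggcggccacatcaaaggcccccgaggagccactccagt
Zfp710: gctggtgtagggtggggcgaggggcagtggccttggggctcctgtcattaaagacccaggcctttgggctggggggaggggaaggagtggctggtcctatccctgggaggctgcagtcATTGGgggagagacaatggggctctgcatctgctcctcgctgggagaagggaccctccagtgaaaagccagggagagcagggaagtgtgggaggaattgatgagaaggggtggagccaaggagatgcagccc

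The window of *Zfp420* held CCAAT 3 times and that of *Zfp710* held it 1 time, all on the opposite strand, while those of *Zfp36* and *Zfp142* held none of the 3 motifs. CCAAT is the site bound by the factor NF-Y, TATAAA the TATA box, and TGACGTCA the cAMP response element. A promoter of the same length was found for 248 of the 295 Zfp genes, with 306 promoters. CCAAT on either strand was in 45.1% of these, against 35.4% of the promoters of other genes well above background and 33.8% of all 32851 promoters in the table. TATAAA was in 7.52% of Zfp promoters, 8.65% of the promoters of other genes well above background and 12.4% of all promoters. TGACGTCA was in 3.92%, 2.33% and 1.55%. Zfp promoters had a median GC content of 54.0% and a median of 11 CpG, and those of other genes well above background 58.4% and 14 CpG. The 125 Zfp genes with CCAAT in a promoter had a median log2 difference of 0.05 under epoxomicin, and the 122 without it had a median of 0.12. The medians were 0.06 and 0.21 under MG132 and 0.05 and 0.07 under ONX0914. A match to these letters is a description and not a site of binding.

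Zfp RNAs were widely present in J774 cells. Of the 330 Zfp genes with a probe, 295 (89.4%) were measured on 1 array or more, against 71.1% of other genes, and 278 (84.2%) on all 4 arrays, against 62.9% of other genes. The remaining 35 Zfp genes were not well above background on any array, and no fold was given for them. The share on single arrays lay between 85.8% under MG132 and 87.0% in DMSO. The probes of Zfp genes were dimmer than those of other genes where both were well above background, with a median DMSO signal of 603 against 1152. Brightness also depends on the probe, so genes were compared between arrays and not with each other.

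As a group, the Zfp genes lay slightly above other genes on each inhibitor array, and the gap stayed above 0 in all alternatives when genes of like signal were compared. Signals were divided by the 75th percentile of their array, and differences are given as log2 of inhibitor over DMSO, on which 1 is a 2-fold increase. With MG132, the median difference of 290 Zfp genes was 0.16, with quartiles of -0.20 and 0.45, while the median of 13700 other genes was -0.02. With epoxomicin, the median of 292 Zfp genes was 0.11, against -0.03 in other genes. With ONX0914, the median of 289 Zfp genes was 0.07, against -0.00 in other genes. The signal was above that in DMSO in 183 Zfp genes (63.1%) under MG132, 168 (57.5%) under epoxomicin and 159 (55.0%) under ONX0914, against 46.6%, 45.9% and 48.3% of other genes. The sign of the Zfp median itself depended on scaling and background correction. It was -0.02 under MG132 without scaling, where the median of other genes was -0.20. After normexp background correction fitted on all spots it was -0.24, -0.25 and -0.25 under MG132, epoxomicin and ONX0914. The medians of other genes were then -0.26, -0.27 and -0.15, so that the Zfp median under ONX0914 lay below that of all other genes. With normexp fitted without outlier spots, the Zfp medians were 0.17, 0.08 and 0.04, against 0, -0.03 and -0.01 in other genes. Normexp values given below are from the fit on all spots unless stated otherwise.

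**Figure D1:**
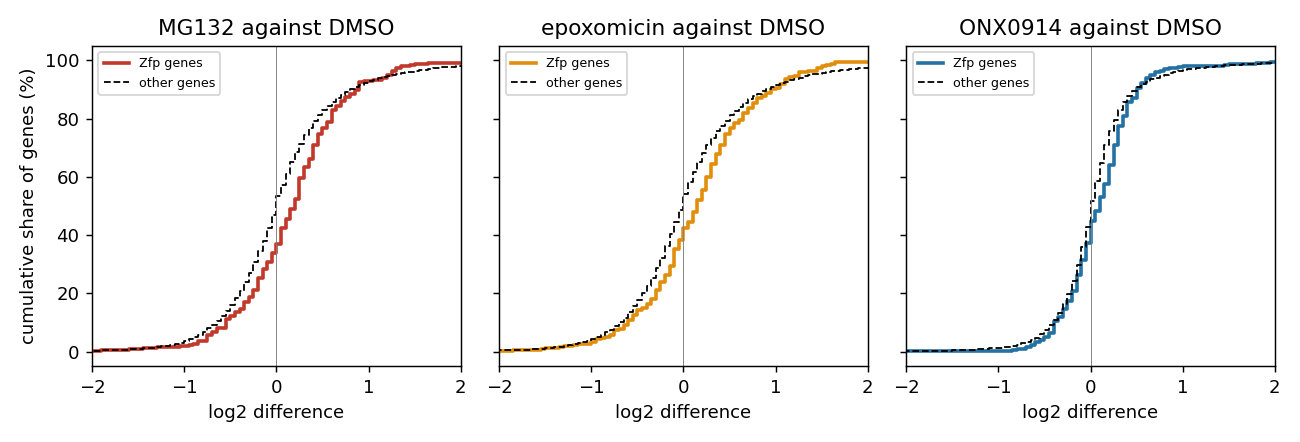
Cumulative share of genes (%, vertical axis) by log2 difference between inhibitor and DMSO (horizontal axis), for Zfp genes (solid) and other genes (dashed), 1 array a condition. In the middle of each panel the Zfp curve lies to the right of the other curve (medians 0.16 against -0.02 under MG132, 0.11 against -0.03 under epoxomicin and 0.07 against -0.00 under ONX0914). The curves come close at the lower end and cross toward the upper end. At 1.5 the Zfp and other shares were 99.0% and 96.4% under MG132 and 97.9% and 95.8% under epoxomicin. With MG132 the Zfp median was -0.02 without scaling. After normexp fitted on all spots, all 3 Zfp medians were below 0, under ONX0914 also below that of other genes (-0.25 against -0.15). Fitted without outlier spots, normexp gave Zfp medians above 0 (0.17, 0.08 and 0.04).

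The share of Zfp genes past 2-fold was above that of all genes only upward under epoxomicin. With MG132, 20 Zfp genes (6.90%) passed 2-fold upward, where 7.13% of all genes tested did, and 6 (2.07%) passed it downward, where 3.62% of all genes did. With epoxomicin, 28 Zfp genes (9.59%) were higher and 10 (3.42%) lower, against 8.37% and 4.34% of all genes. With ONX0914, 5 Zfp genes (1.73%) were higher and 1 (0.346%) lower, against 3.23% and 1.38% of all genes. The 5 were *Zfp142*, *Zfp36*, *Zfp418*, *Zfp420* and *Zfp879*, and the 1 was *Zfp37*. These splits depended on scaling and background correction. Without scaling, 14 were higher and 11 lower under MG132, against 5.29% and 6.51% of other genes. With a shift to the median, 22 were higher and 13 lower under epoxomicin, against 7.45% and 5.48% of other genes. After normexp the counts were 10 and 34 of 289, 16 and 44 of 292, and 1 and 42 of 289 under the 3 inhibitors. Other genes fell there as well, with 18.2%, 21.4% and 19.3% at least 2-fold lower and 3.36%, 4.05% and 1.40% higher. With normexp fitted without outlier spots, 14, 19 and 3 Zfp genes were higher and 2, 3 and 0 lower. Of other genes, 4.31%, 4.93% and 1.55% were higher in that fit and 2.06%, 2.74% and 0.542% lower. Where a signal was not well above background on one array of a pair, the fold is a bound against the lowest signal well above background there, and 9, 12 and 5 Zfp values under MG132, epoxomicin and ONX0914 were such bounds. The SD of the differences over Zfp genes was 0.596, 0.654 and 0.416 with the 3 inhibitors, smaller than the 0.721, 0.791 and 0.498 over other genes.

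The shift remained when Zfp genes were set against other genes of like signal. All genes tested were split into 10 bins by their mean level over the 4 arrays, and the median difference of other genes in the same bin was taken from that of each Zfp gene. The median of these gaps was 0.16 under MG132, 0.16 under epoxomicin and 0.07 under ONX0914, and it was above 0 under every processing alternative run, with a range of 0.038 to 0.177 over the inhibitors. The Zfp median was above that of other genes in 8 of 10 bins under MG132, 8 under epoxomicin and 7 under ONX0914. The faintest bins were among the exceptions. In the second faintest, 21 Zfp genes had a median of -0.25 under epoxomicin, against 0.01 in other genes, and in the eighth, 21 Zfp genes had a median of 0.41, against -0.04. In other genes weighted to the levels of the Zfp genes, 7.003%, 8.26% and 2.55% passed 2-fold upward and 3.99%, 4.85% and 1.25% downward under MG132, epoxomicin and ONX0914.

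**Figure D2:**
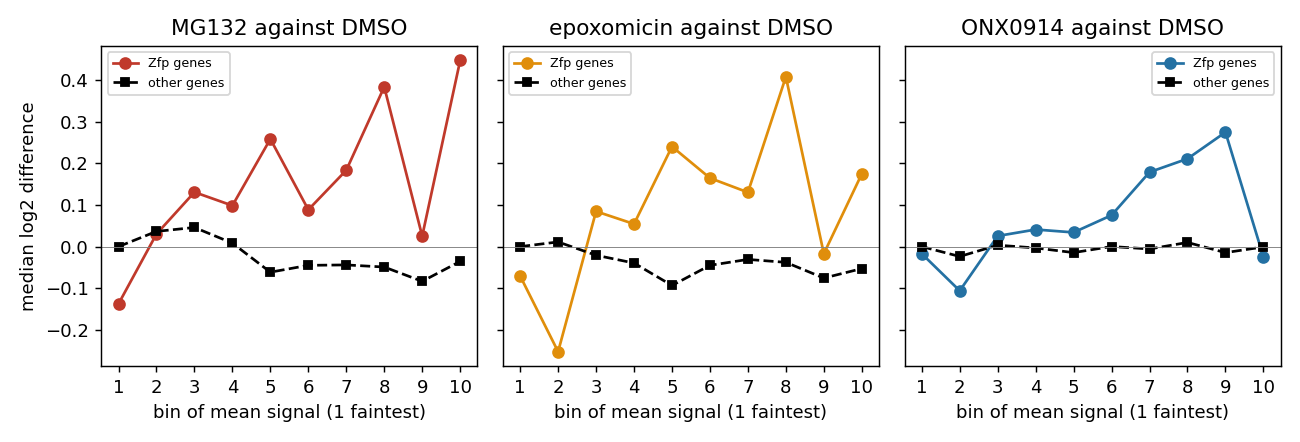
Median log2 difference between inhibitor and DMSO (vertical axis) in 10 bins of mean signal over the 4 arrays (horizontal axis, bin 1 faintest), for Zfp genes (circles) and other genes (squares), 1 array a condition. Other genes stay near 0 in all bins, and the Zfp median lies above theirs in 8, 8 and 7 of 10 bins, with values below theirs in the faintest. Bins 1, 9 and 10 hold 12 or fewer Zfp genes each. Under normexp fitted on all spots and, under MG132, without scaling, the medians over all Zfp genes and over all other genes were both below 0.

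*Zfp420*, a KRAB zinc finger gene, had the largest increases of the Zfp genes. Its signal was 231 in DMSO, 1438 under MG132, 1919 under epoxomicin and 951 under ONX0914. All 3 inhibitor arrays were far above the DMSO array, by log2 differences of 2.82, 3.03 and 2.08, which are 7.06-, 8.18- and 4.22-fold. This rests on 1 probe, since the other probe of the gene was not well above background on any array.

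*Zfp36* was second under MG132 and epoxomicin. Its signal was 268 in DMSO, 1034 under MG132, 1591 under epoxomicin and 884 under ONX0914. It was highest under epoxomicin, and its log2 differences were 2.13, 2.55 and 1.76. The DMSO value was the lowest of the 4. Relatives of *Zfp36* with CCCH fingers rose less or fell. Of 7 listed genes (the Zfp36l and Zc3h12 genes, which also act on mRNA), 6 were measured, none was at least 2-fold higher on any inhibitor array, and their medians were -0.07, -0.01 and -0.24. Of all genes tested, 7.13%, 8.37% and 3.23% were 2-fold higher. *Zc3h12c* rose on all 3 inhibitor arrays in the same order as *Zfp36*, with signals of 441, 641, 836 and 589 and differences of 0.72, 0.90 and 0.46. The signal of *Zfp36l2* was 25341 in DMSO, 6320 under MG132, 8377 under epoxomicin and 12152 under ONX0914. It was lower on all 3 inhibitor arrays, with log2 differences of -1.82, -1.62 and -1.02. *Zc3h12a* (Regnase-1), an endonuclease for inflammatory mRNAs, had differences of -0.02, 0.34 and -0.01.

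*Zfp142* was the third gene at least 2-fold higher on every inhibitor array, out of 287 Zfp genes with values for all 3. Of all genes tested, 1.98% were higher and 0.975% lower in this way. Its signal was 248 in DMSO, 664 under MG132, 693 under epoxomicin and 662 under ONX0914. The 3 inhibitor arrays lay close together, with log2 differences of 1.60, 1.46 and 1.45. A second probe of the gene rose less, from 221 to 325, 395 and 376, with differences of 0.74, 0.82 and 0.81. Under normexp background correction *Zfp142* was below 2-fold on all 3 arrays (0.85, 0.74 and 0.71) and *Zfp36* under ONX0914 (0.88), and *Zfp420* was still past 2-fold on all 3 (1.86, 2.09 and 1.18).

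*Zfp37* was the 1 Zfp gene at least 2-fold lower on every inhibitor array. Its signal was 92.5 in DMSO and 3.93, 4.41 and 4.27 under MG132, epoxomicin and ONX0914. It passed background only on the array of DMSO, and was at least 4.57-, 4.61- and 4.67-fold lower with the inhibitors. Of all probes on the array, 28 were likewise past background only on that array and at least 4-fold lower on the others, against 19, 19 and 23 for the MG132, epoxomicin and ONX0914 arrays alone, and whether the single DMSO spot or the RNA differed was not tested.

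**Figure D3:**
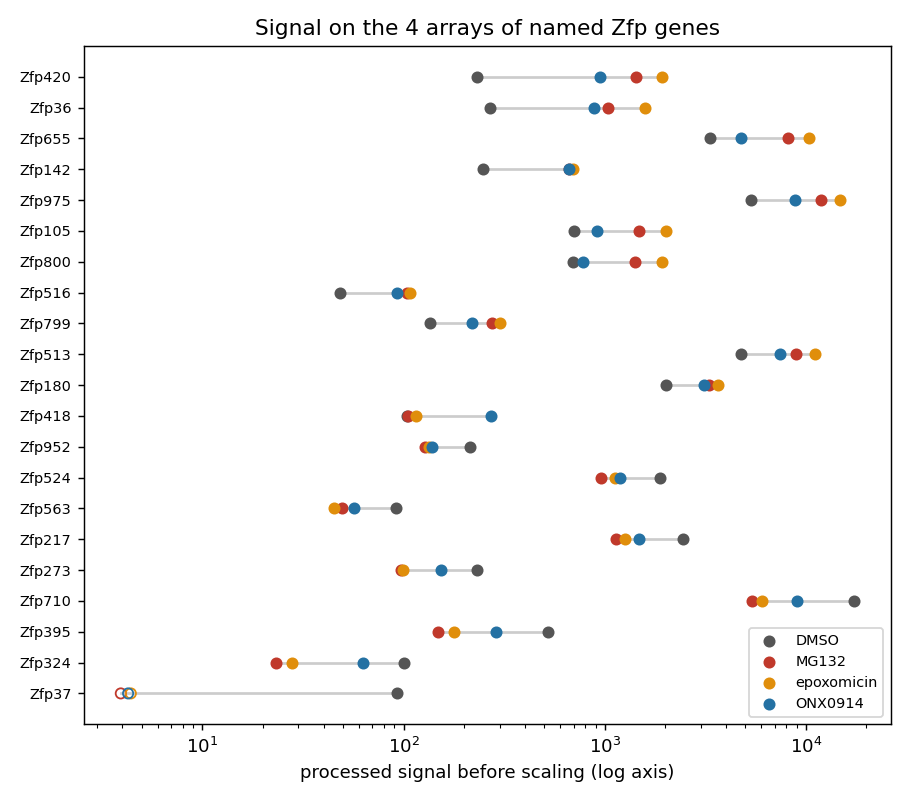
Processed signal before scaling (horizontal log axis) of named Zfp genes (rows) on the arrays of DMSO, MG132, epoxomicin and ONX0914, 1 point an array and open where the signal was not well above background. *Zfp420* runs from 231 in DMSO to 1919 under epoxomicin and *Zfp710* from 17308 in DMSO down to 5422 under MG132. In most rows the ONX0914 point lies between DMSO and the other inhibitors, while in *Zfp418* it stands alone at 271.

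Other Zfp genes rose on all inhibitor arrays by smaller amounts. *Zfp975* had signals of 5330, 11825, 14706 and 8846 in DMSO, MG132, epoxomicin and ONX0914. Its differences were 1.33, 1.44 and 0.77, and its 4 other probes were also above DMSO on each inhibitor array, under MG132 differences of 0.48 to 1.35. *Zfp513* had signals of 4736, 8932, 11135 and 7402, with differences of 1.1004, 1.21 and 0.68. In both genes the order of the arrays was DMSO, ONX0914, MG132 and epoxomicin. *Zfp799* had signals of 135, 274, 300 and 218, with differences of 1.20, 1.13 and 0.73, and *Zfp180* of 2023, 3301, 3670 and 3110, with differences of 0.89, 0.84 and 0.66. *Zfp516*, a transcription factor known from brown fat, had a low signal of 48.3 in DMSO and 104, 107.4 and 93.1 with the inhibitors, with differences of 1.29, 1.13 and 0.99. The *Zfp516* and *Zfp799* values depended on background correction, since after normexp *Zfp516* had -0.88, -1.004 and -1.07 under MG132, epoxomicin and ONX0914, and *Zfp799* had -0.02 under epoxomicin and -0.28 under ONX0914.

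Among the genes that fell, *Zfp710* started from a bright signal. Its signal was 17308 in DMSO, 5422 under MG132, 6025 under epoxomicin and 9061 under ONX0914. All inhibitor arrays were below DMSO, with log2 differences of -1.49, -1.54 and -0.89. *Zfp395* had signals of 522, 148, 178 and 288, with differences of -1.63, -1.57 and -0.82. Its 3 other probes had the same sign, under MG132 differences from -1.87 to -0.29, so that the probes of the gene disagree in size. *Zfp324* had signals of 101, 23.1, 28.0 and 62.8, with differences of -1.93, -1.86 and -0.64, and *Zfp273* of 231, 96.9, 99.0 and 154, with differences of -1.07, -1.24 and -0.54. In each of these genes the ONX0914 array lay between DMSO and the other inhibitor arrays. *Zfp952* (214, 128, 134 and 139) and *Zfp563* (91.9, 49.4, 45.2 and 56.4) were lower by amounts mostly under 2-fold, with differences of -0.56, -0.69 and -0.58 and of -0.71, -1.04 and -0.66. In *Zfp952* the 3 inhibitor arrays were near each other.

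By known role, the 10 members that act on RNA or the ribosome were mostly above DMSO. Of these, 9 were above DMSO under MG132, 9 under epoxomicin and 10 under ONX0914, against 46.6%, 45.9% and 48.3% of other genes. At least 2-fold higher were 3, 3 and 1 of the 10, where 7.13%, 8.37% and 3.23% of all genes tested were, and none was 2-fold lower. With so few members, 1 gene moves these shares. Their medians were 0.40, 0.43 and 0.22. *Zfp622*, a maturation factor of the large ribosomal subunit, had signals of 57351 in DMSO, 101595 under MG132, 119939 under epoxomicin and 61012 under ONX0914. It rose under MG132 and epoxomicin (1.01 and 1.04), and its ONX0914 value was near that of DMSO (0.13). *Zfp593*, which also serves large subunit assembly, had signals of 3461, 7097, 8847 and 4484, with differences of 1.22, 1.33 and 0.41, and its second probe gave 1.14, 1.34 and 0.44. *Zfp598*, the ubiquitin ligase of collided ribosomes, had 0.37, 0.42 and 0.24. *Zfp207*, a spindle and mRNA-processing factor, was near 0 throughout (-0.16, -0.12 and 0.01).

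Widely expressed transcription regulators came next. Of 16 listed, 15 were measured, 12, 10 and 11 were above DMSO under MG132, epoxomicin and ONX0914, and their medians were 0.37, 0.42 and 0.19. Of other genes, 46.6%, 45.9% and 48.3% were above DMSO. After normexp, 10, 10 and 9 of the 15 were above DMSO, with medians of 0.22, 0.32 and 0.01. Only *Zfp410* passed 2-fold, under epoxomicin, where 8.37% of all genes tested were at least 2-fold higher. The signal of *Zfp410*, an activator of the chromatin remodeler gene *Chd4*, was 1939 in DMSO and 3227, 4200 and 2648 with the inhibitors, with differences of 0.92, 1.095 and 0.49. *Chd4* itself had signals of 46894, 30411, 29350 and 37265, with differences of -0.44, -0.70 and -0.29. *Zfp131* had 0.85, 0.92 and 0.26, *Zfp281*, known from pluripotent cells, had 0.58, 0.67 and 0.25, and *Zfp143*, an activator bound at many promoters, had 0.31, 0.50 and 0.26. *Zfp217*, a partner of corepressor complexes, went the other way, with signals of 2447, 1140, 1254 and 1485 and differences of -0.92, -0.98 and -0.68. Its second probe gave -0.60, -0.77 and -0.43.

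The 8 silencers of retroelements and imprinted loci stayed within 2-fold on every inhibitor array, with medians of 0.18, 0.21 and 0.13, which turned to -0.13, -0.05 and -0.15 after normexp. Staying within 2-fold was usual, since 13.4% of other genes with values for all 3 inhibitors were past it on at least 1 array. The faint *Zfp708*, with signals of 28.7, 35.9, 41.5 and 49.3, had 0.50, 0.51 and 0.82, while a second probe gave 0.13, -0.05 and 0.11. After normexp the gene had -1.08, -1.12 and -1.12. *Zfp459* was likewise past 2-fold downward after normexp under MG132 (-1.12) and ONX0914 (-1.04). *Zfp57* and *Zfp445* keep methylation at imprinted loci in the embryo. *Zfp445* had signals of 1834, 2985, 3227 and 2785, with differences of 0.89, 0.80 and 0.64, and *Zfp57* of 713, 526, 659 and 795, with differences of -0.25, -0.13 and 0.20. *Zfp445* was thus above DMSO on each inhibitor array and *Zfp57* was not. *Zfp809*, which silences murine leukemia proviruses, had -0.16, 0.04 and -0.02, while a second probe gave 0.34, 0.38 and 0.20. The KRAB corepressor genes, which act with these proteins, also stayed within 2-fold. Of 24 listed, 23 were measured and none was past 2-fold, as was the case for most other genes, with medians of -0.00, -0.13 and -0.12. *Trim28* had signals of 18545, 17408, 19829 and 17708, with differences of 0.09, 0.08 and -0.03, and *Setdb1* had -0.41, -0.30 and -0.23. *Cbx5*, which encodes heterochromatin protein HP1α, had the lowest values of the list with -0.81, -0.88 and -0.57.

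Members with roles in signaling, differentiation and immunity were divided. Of 13 listed, 11 had a probe and 10 were measured, with medians of 0.08, 0.10 and 0.12, which turned to -0.41, -0.33 and -0.52 after normexp. *Zfp36* and *Zfp516*, given above, were the 2 members at least 2-fold higher under MG132 and under epoxomicin, and *Zfp36* alone under ONX0914. Of all genes tested, 7.13%, 8.37% and 3.23% were. After normexp only *Zfp36* was still past 2-fold upward, under MG132 (1.23) and epoxomicin (1.62). *Zfp703*, a corepressor of the NET family, had signals of 21249, 29018, 35664 and 23344, with differences of 0.63, 0.73 and 0.17. *Zfp467*, known from osteoblasts and adipocytes, had 1103, 615, 759 and 800, with differences of -0.66, -0.56 and -0.43. *Zfp318*, a regulator of IgD expression in B cells, had -0.13, 0.09 and -0.44. Its other probes gave -0.61, -0.33 and -0.38 under MG132, -0.25, -0.15 and -0.27 under epoxomicin, and 0.26, -0.48 and -0.13 under ONX0914. *Zfp521* was not well above background on any array.

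**Figure D4:**
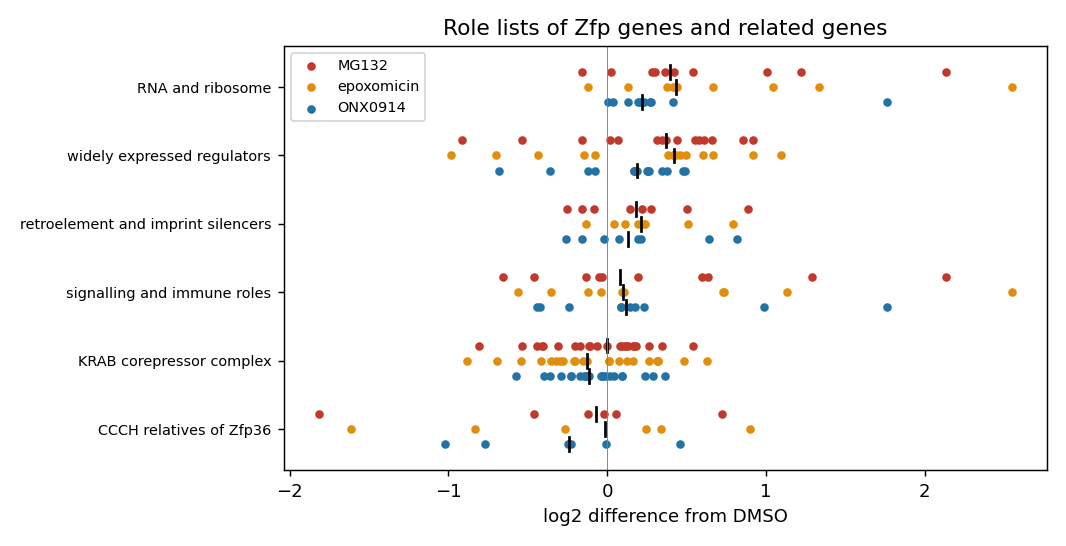
Log2 difference from DMSO (horizontal axis) of the genes of 6 role lists (rows), 1 point a gene and inhibitor, with black bars at the medians, 1 array a condition. RNA and ribosome members lie mostly to the right of 0 (medians 0.40, 0.43 and 0.22) and KRAB corepressor genes around 0 (medians -0.00, -0.13 and -0.12). *Zfp36* is the rightmost point in 2 lists.

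The inhibitors were also set against each other at the shared dose and time, which does not involve the DMSO array. MG132 and epoxomicin differed little. *Zfp541* alone was at least 2-fold higher under epoxomicin than under MG132 (0.814% of all genes tested were) and none was 2-fold lower (0.704% of all genes), and the median of 288 Zfp genes was 0.01. *Zfp541* was well above background under epoxomicin alone, with signals of 5.88, 3.62, 45.0 and 3.94 in DMSO, MG132, epoxomicin and ONX0914. With ONX0914 set against MG132, 3 Zfp genes were at least 2-fold higher (*Zfp324*, *Zfp418* and *Zfp879*) and 1 lower (*Zfp800*), against 1.08% and 3.03% of all genes. *Zfp879* was well above background under ONX0914 alone, with signals of 3.00, 3.58, 4.10 and 53.5. The median of Zfp genes was -0.09 in that comparison and that of other genes 0.03. With ONX0914 set against epoxomicin, the other epoxyketone, 5 Zfp genes were higher (*Zfp112*, *Zfp324*, *Zfp418*, *Zfp763* and *Zfp879*) and 7 lower, against 1.55% and 4.42% of all genes, with medians of -0.07 in Zfp genes and 0.05 in others. With 1 array a condition, no interval could be given for a difference between inhibitors.

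The genes that set ONX0914 apart most ran in both directions. *Zfp418* had signals of 104 in DMSO, 105 under MG132, 116 under epoxomicin and 271 under ONX0914. Only ONX0914 stood apart, with log2 differences of 0.20, 0.13 and 1.42 from DMSO. After normexp the differences were -0.67, -0.91 and 0.00. ONX0914 was then still 0.67 above MG132 and 0.91 above epoxomicin, both below 2-fold. *Zfp655* had signals of 3331, 8178, 10357 and 4772, with differences of 1.48, 1.62 and 0.56, and its 2 other probes gave 0.92 to 1.08 under MG132 and 0.44 to 0.70 under ONX0914. *Zfp800* had signals of 695, 1416, 1920 and 777, with differences of 1.21, 1.45 and 0.20, and its second probe gave 1.21, 1.53 and 0.29. *Zfp105* had 701, 1481, 2013 and 911, with differences of 1.26, 1.502 and 0.42. These 3 genes were raised under MG132 and epoxomicin, and their ONX0914 values were nearer to DMSO. *Zfp324*, which fell under MG132 and epoxomicin, was 1.30 higher under ONX0914 than under MG132 and 1.22 higher than under epoxomicin on the log2 scale. Its MG132 and epoxomicin signals were close to the lowest ones well above background there (17.8 and 20.3), and after normexp these differences were 0.40 and 0.34, below 2-fold.

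Zfp genes were then ordered by their neighbors in the genome. Runs were defined as members with at most 3 other genes between neighbors in the RefSeq table, and 14 runs held at least 4 measured members, 114 genes in all. The run of *Zfp420*, which includes *Zfp14*, *Zfp82*, *Zfp382* and *Zfp568*, had 13 of 14 members above DMSO under MG132, 10 under epoxomicin and 11 under ONX0914, with medians of 0.26, 0.19 and 0.26. Of other genes, 46.6%, 45.9% and 48.3% were above DMSO. Next to *Zfp420*, its largest member by far, the run held 2 further genes at least 2-fold higher under MG132, so that most of it was within 2-fold. Of all genes tested, 7.13% were at least 2-fold higher under MG132. By the brightest probe of each gene, the run of *Zfp524*, *Zfp579*, *Zfp580*, *Zfp784* and *Zfp865* was the 1 run with all members below DMSO on each inhibitor array. Its medians were -0.45, -0.41 and -0.32. Of other genes with values for all 3 inhibitors, 37.1% were below DMSO on every inhibitor array. *Zfp524* had signals of 1889, 955, 1125 and 1196 there, with differences of -0.80, -0.77 and -0.62, and *Zfp865* had -0.07, -0.15 and -0.10. Further probes of *Zfp865* gave 0.31, -0.24 and 0.09 and 0.38, -0.21 and 0.24, above DMSO under MG132 and ONX0914. No member of that run was 2-fold lower, where 3.62%, 4.34% and 1.38% of all genes tested were. The run with most measured members, *Zfp273* and 16 further ones, had medians of 0.10, -0.06 and 0.03.

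Members outside such clusters had higher medians than those within, a difference that was not tested. The 129 measured Zfp genes in runs of 4 or more members of the RefSeq table had medians of 0.10, -0.02 and -0.00 under MG132, epoxomicin and ONX0914, and the 166 outside such runs had 0.21, 0.22 and 0.10. At least 2-fold higher were 5, 9 and 2 of the first (3.91%, 6.98% and 1.56%) and 15, 19 and 3 of the second (9.26%, 11.7% and 1.86%), against 7.13%, 8.37% and 3.23% of all genes tested. At least 2-fold lower were 3, 6 and 0 of the first (2.34%, 4.65% and 0%). Of the second, 3, 4 and 1 were lower (1.85%, 2.45% and 0.621%), against 3.62%, 4.34% and 1.38% of all genes tested. The probes of clustered members were dimmer, with a median level of -1.997 against -0.82 in log2 units relative to the 75th percentile of the array, and the part of brightness in this gap was not tested.

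**Figure D5:**
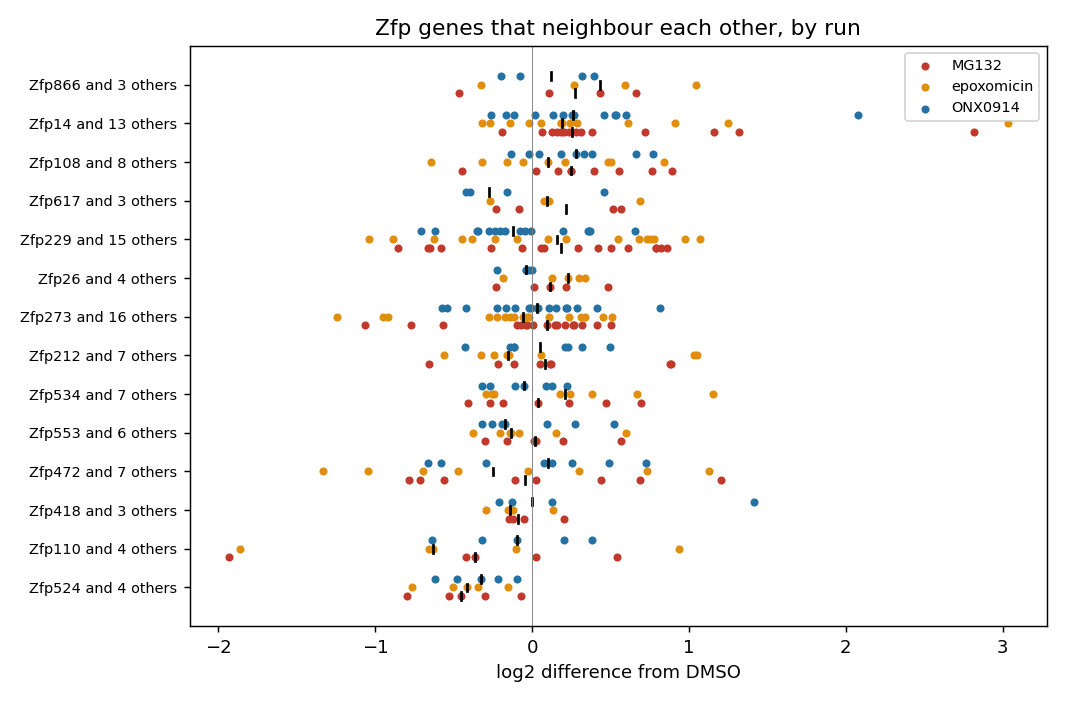
Log2 difference from DMSO (horizontal axis) of Zfp genes in the 14 runs of neighboring members (rows), 1 point a gene and inhibitor, with black bars at the medians, 1 array a condition. *Zfp420* stands alone at the right of its run (the second row, *Zfp14* and 13 others), and all points of the bottom run (*Zfp524* and 4 others) lie below 0. Points are the brightest probe of a gene, and further probes of *Zfp865* were above 0 under MG132 and ONX0914.

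Further probes of the same genes gave a check within the arrays. Of 114 further probes of 91 Zfp genes, 89 had the same sign as the brightest probe of the gene under MG132, 77 under epoxomicin and 77 under ONX0914, and the median gap in size was 0.259, 0.289 and 0.181. Where the brightest probe was past 2-fold, the further probe had the same sign in 12 of 12 pairs under MG132, 13 of 13 under epoxomicin and 1 of 1 under ONX0914, and was itself past 2-fold in 8, 9 and 0. These pairs are not separate genes, since *Zfp975*, *Zfp655* and *Zfp395* each gave more than 1 pair under MG132 and under epoxomicin. The median differences of the group, 0.07 to 0.16, were smaller than the median gap between probes. Some very bright probes differed from other probes of their gene. *Zfp628* had signals of 229265, 243331, 229608 and 238772 on one probe and 1265, 1743, 2369 and 1460 on the other, under MG132 differences of 0.27 and 0.65. *Zfp663* had 35827, 42965, 38040 and 28421 on one probe, while its other probe was not well above background on any array. *Zfp408* (0.36, 0.17 and -0.08) and *Zfp658* (0.74, 0.87 and -0.02), each with 1 bright probe, stayed within 2-fold.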

How the data were processed

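RNA of J774 cells was measured on 4 single-color (Cy3) mouse arrays on 1 slide. The paper names a human design, whereas the scanner headers describe a mouse one. The authors deposited Feature Extraction 10.7.1.1 output holding spot intensity, raw and background-subtracted, and calls per spot coded 0 or 1, and a table of log2 values with 39483 entries. The deposited intensity was not scaled across the arrays.

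Control and outlier spots were left out, log2 of the processed signal was taken, the 75th percentile of the array was subtracted, and spots of a probe were averaged. Of 39429 probes, 26581 were named through their transcript accession in RefSeq tables of GRCm38.p6. The probe with the highest mean represented a gene (20133 genes). A gene entered a comparison when well above background on 1 of its arrays, and a 2-fold difference counted as higher or lower. Signals not well above background were replaced by the lowest signal well above it, unless their own was higher. Array number, not read depth, limits the precision.

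Members, gene lists and alternatives were chosen with earlier results of these data known. Genes were named where past 2-fold on all inhibitor arrays, among the 8 largest increases or decreases, the 5 brightest probes, the 5 largest departures of ONX0914, and in role lists. A few further genes (*Zfp112*, *Zfp541*, *Zfp763* and *Zfp879*) were chosen after their values were seen, as the members of small counts. *Zfp14*, *Zfp82*, *Zfp382*, *Zfp579*, *Zfp580*, *Zfp784* and *Zfp865* were also named outside these rules, as members of the runs described. Calling of gene-level differences was tested on simulated data, with planted changes well past 2-fold and noise near the spread of spots. Scaling, probe choice and the level bins were not covered by it. Alternatives were normexp in limma 3.58.1 (R 4.3.3, offset 50, on the median brightness of a spot), quantile normalization, no scaling, a shift to the median, the mean over probes, the authors' value table, other filters, no bounds and 4 bins. Other steps used Python 3.11.15, numpy 2.4.6 and pandas 2.3.3.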

Additional observations from a re-analysis of the deposited data

How the results depend on the processing

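The gap between Zfp genes and other genes of like level stayed above 0 under all alternatives run, from 0.097 to 0.177 under MG132, 0.097 to 0.166 under epoxomicin and 0.038 to 0.082 under ONX0914. For this gap the authors' table, both filters, the mean over probes and signals in place of bounds were added after seeing the data. The Zfp medians and counts depended on the processing. With normexp background correction the medians were -0.24, -0.25 and -0.25 under MG132, epoxomicin and ONX0914, the counts at least 2-fold higher were 10, 16 and 1, those lower 34, 44 and 42, and 1 gene was higher and 25 lower with all 3. Of other genes, 18.2%, 21.4% and 19.3% were lower after normexp, and 14.9% with all 3, so the fall was not particular to Zfp genes. Of 64 named Zfp genes, 8, 12 and 13 changed sign there under MG132, epoxomicin and ONX0914, 20 under at least 1 of them. Those past 2-fold before were *Zfp516* under MG132 (-0.88) and epoxomicin (-1.004) and *Zfp799* under epoxomicin (-0.024). With normexp fitted without outlier spots, added after seeing the data, 2, 3 and 0 Zfp genes were lower, 3 were higher under ONX0914, and 0 were lower with all 3. The Zfp medians were then above 0, with 0.17, 0.08 and 0.04. The cause was not tested. Without scaling, the MG132 median was -0.021 and 11 genes were lower, as the median of other genes moved to -0.20. A shift to the median gave an MG132 median of 0.0605. With genes well above background on all 4 arrays, 0 were lower under ONX0914 and 0 with all 3, since *Zfp37* was removed by that filter. With no filter, 10 were lower under MG132, 12 higher and 2 lower under ONX0914, and 8 higher with all 3. Taking the 75th percentile over probes, also added after seeing the data, quantile normalization, the authors' table, the mean over probes and signals in place of bounds left all medians and counts within the spread of spots or within 1.5 times. Membership by RefSeq symbol alone equals that reported, since no other symbol was given in the files. A count restricted to genes with several C2H2 matches in their protein was not run, for want of a protein table here. No paired analysis was possible because each condition had 1 array, and no replicate could be left out. Single arrays limit all values: the named genes that changed sign under normexp had median DMSO signals of 118, 183 and 175 under MG132, epoxomicin and ONX0914, against 1861, 1861 and 1894 in those that did not, with bright ones among them, and a difference between cultures cannot be told apart from a difference between conditions.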
